A study of Mus musculus with 9 samples.

Results

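The mouse Fc gamma receptor genes Fcgr1, Fcgr2b, Fcgr3 and Fcgr4, the adaptor gene Fcer1g and the neonatal Fc receptor gene Fcgrt were followed through 9 bulk RNA-seq profiles of orthotopic Hepa1-6 tumors. These 6 genes were chosen by name, out of 52163 gene symbols with a value in every tumor, and all 6 passed the filter on low values in each comparison. Hepa1-6 is a mouse hepatoma line, and the hosts were C57BL/6 mice aged 6 to 8 weeks that received pieces of subcutaneous tumor in the liver. The PBS group (3 mice) was injected with PBS alone, and both other groups were injected with an anti-PD-1 antibody, which blocks an inhibitory receptor of T cells, every 4 days for 5 injections from day 10 to day 26. Tumors were collected whole on day 27 without the surrounding tissue. The anti-PD-1-nonresponsive group (3 mice) holds the largest and the anti-PD-1-responsive group (3 mice) the smallest of the antibody-treated tumors, with intermediate tumors left out, so that tumor size itself defines these groups.

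Fc gamma receptors sit on macrophages, monocytes, neutrophils, natural killer cells and B cells and bind the constant part of immunoglobulin G. The products of Fcgr1, Fcgr3 and Fcgr4 are activating: they bind antibody but signal through the common gamma chain made by Fcer1g, whose ITAM motif recruits Src family kinases and Syk and leads to phagocytosis, an oxidative burst and release of cytokines. The product of Fcgr2b carries an inhibitory ITIM motif of its own and calls in the phosphatase SHIP1, so the balance of both kinds sets how strongly a macrophage reacts to antibody-coated cells. The neonatal receptor FcRn, made from Fcgrt and paired with beta-2 microglobulin, works inside cells, where it rescues immunoglobulin G and albumin from breakdown, with hepatocytes, endothelium and macrophages as main sites.

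Levels were measured as FPKM, fragments per kilobase of transcript, scaled to all mapped fragments, so that levels of different genes are compared per length. In the deposited coordinates Fcgr1 lay at chr3:96190224-96201285 and Fcgrt at chr7:44742413-44753275, except in responsive tumor 3, where the row of Fcgrt ran on to 44765405. The other members form a cluster, with Fcgr2b at chr1:170786185-170804116, Fcgr4 at chr1:170846488-170857330, Fcgr3 at chr1:170878742-170892504 and Fcer1g at chr1:171057140-171061934. The labels name the build mm8, but the starts of these genes differ from those of GRCm38 and the build of the coordinates could not be settled. Transcripts were assembled anew in each tumor, and neighboring genes were merged into 1 row of the table in some tumors only. Fcgr2b and Fcgr3 shared a row in 5 tumors (PBS tumors 1 and 3, nonresponsive tumors 1 and 2 and responsive tumor 3). Fcer1g shared a row in 3 tumors (PBS tumors 2 and 3 and nonresponsive tumor 1) with another gene. Fcgr1, Fcgr4 and Fcgrt stood alone in all 9 tumors. A value of Fcgr2b, Fcgr3 or Fcer1g alone is therefore not comparable between tumors, and the summed FPKM of Fcgr2b + Fcgr3 is given as the level of their locus. Fcer1g is given by its rows, which in those 3 tumors include the other gene's signal.

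Some facts of the series bear on all values. The share of the summed FPKM taken by rows without a gene name was 19.2% to 81.5% in PBS tumors, 70.4% to 73.2% in the nonresponsive group and 21.0% to 55.1% in the responsive group. PBS tumor 1 stood apart, with the lowest mean level of the macrophage, B cell, T cell and hepatocyte markers of all 9 tumors. Afp, the fetal liver protein that marks hepatoma cells, was 0.321 FPKM in nonresponsive tumor 1 and 0.646 FPKM in responsive tumor 1 against 4.40 to 56.5 FPKM in the other tumors, so that marker of the labelled tumor was nearly absent in 2 tumors. The number of sequenced fragments, and so the depth, is unknown. Cufflinks' own intervals spanned 3.38% to 9.35% of the value on either side for all rows of the members but the Fcgrt row of responsive tumor 2, where it was 51.7%.

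Fcgr1 and Fcgr4, the genes of activating receptors that moved most alike among the members without a shared row, are shown by the 250 bases before their start site (RefSeq, GRCm38.p6). The sequence runs in the direction of transcription, at chr3:96293970-96294219 on the minus strand for Fcgr1 and chr1:171018676-171018925 on the plus strand for Fcgr4. Capitals mark matches on either strand to TTCNNNGAA (the gamma-activated site bound by STAT factors), GAAA with another GAAA after any 2 bases (the core of the interferon-stimulated response element) and GAGGAA (the core bound by ETS factors such as PU.1 of myeloid cells).
Fcgr1: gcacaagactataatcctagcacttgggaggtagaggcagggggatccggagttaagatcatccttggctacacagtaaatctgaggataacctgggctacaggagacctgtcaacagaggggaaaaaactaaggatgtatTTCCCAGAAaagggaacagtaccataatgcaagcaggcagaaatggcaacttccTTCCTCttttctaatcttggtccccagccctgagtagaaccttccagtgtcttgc
Fcgr4: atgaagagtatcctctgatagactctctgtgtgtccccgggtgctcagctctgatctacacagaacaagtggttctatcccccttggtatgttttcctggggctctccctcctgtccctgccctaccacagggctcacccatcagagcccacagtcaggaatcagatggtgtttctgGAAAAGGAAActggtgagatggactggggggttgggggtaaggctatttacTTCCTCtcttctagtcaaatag

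The match TTCCCAGAA began 109 bases before the start site of Fcgr1, and the match GAAAAGGAAA began 73 bases before that of Fcgr4. Both genes also held TTCCTC, which is GAGGAA on the other strand, 55 bases before the start of Fcgr1 and 22 bases before that of Fcgr4. No matches overlapped. Over the table's whole window of 250 bases before to 50 bases after the start, TTCNNNGAA was found in 8.30% of 32851 mouse promoters, the spaced pair of GAAA in 3.44% and GAGGAA in 28.3%. Of the 6 members, all with an entry, only Fcgr1 held the first motif, only Fcgr4 the second, and Fcgr1, Fcgr3 and Fcgr4 the third. These matches describe letters, not binding.

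Among the activating receptors Fcgr1, which encodes the high-affinity receptor FcγRI, was the least abundant member in all 9 tumors. Fcgr1 was 13.5, 17.6 and 22.7 FPKM in PBS tumors 1, 2 and 3, 47.0, 42.5 and 24.4 FPKM in nonresponsive tumors, and 20.9, 16.4 and 23.2 FPKM in responsive tumors. The nonresponsive tumors were all above the other 6, but tumor 3 of that group lay within 2 FPKM of the highest PBS and responsive tumors. The group means were 17.9 ± 4.60, 37.9 ± 11.95 and 20.2 ± 3.45 FPKM (SD, n = 3 each).

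Fcgr4 encodes FcγRIV, the activating receptor of mouse monocytes and macrophages for IgG2 antibodies. Fcgr4 was 51.5, 75.1 and 92.7 FPKM in PBS tumors, 138, 127 and 97.9 FPKM in nonresponsive tumors, and 75.2, 40.2 and 83.3 FPKM in responsive tumors. Again each nonresponsive tumor exceeded each PBS and each responsive tumor, with tumor 3 the lowest of its group, while the PBS and responsive tumors overlapped. The group means were 73.1 ± 20.7, 121 ± 20.8 and 66.2 ± 22.9 FPKM (SD, n = 3 each).

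Fcgr3 encodes the low-affinity activating receptor FcγRIII and Fcgr2b the inhibitory receptor FcγRIIb, and together they were the most abundant of the Fc gamma receptor loci. Fcgr2b + Fcgr3 was 136, 310 and 295 FPKM in PBS tumors, 495, 386 and 242 FPKM in nonresponsive tumors, and 396, 164 and 266 FPKM in responsive tumors. All 3 groups overlapped, with means of 247 ± 96.5, 374 ± 127 and 275 ± 116 FPKM (SD, n = 3 each). In the 4 tumors with separate rows, Fcgr2b was 132 FPKM in PBS tumor 2, 117 FPKM in nonresponsive tumor 3, and 182 and 70.0 FPKM in responsive tumors 1 and 2. Fcgr3 was 178, 125, 214 and 93.6 FPKM in the same tumors. Fcgr3 was thus above Fcgr2b in each of them, at 1.35, 1.07, 1.17 and 1.34 times its level, highest in PBS tumor 2 and lowest in nonresponsive tumor 3. In the deposited group table, where genes kept rows of their own, the authors' pooled values were 102, 156 and 126 FPKM for Fcgr2b and 142, 208 and 162 FPKM for Fcgr3 in PBS, nonresponsive and responsive tumors.

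Fcer1g, the adaptor chain that the activating receptors need to reach the cell surface, was the most abundant member, above Fcgr2b + Fcgr3 in all 6 tumors where its row held no other gene. The row of Fcer1g held 151 FPKM in PBS tumor 1, 550 and 299.6 FPKM in nonresponsive tumors 2 and 3, and 569, 232 and 409 FPKM in responsive tumors 1, 2 and 3, where the gene stood alone. The shared rows held 544 and 504 FPKM in PBS tumors 2 and 3 and 870 FPKM in nonresponsive tumor 1. Over all rows the groups overlapped, with means of 399.6 ± 216 FPKM in PBS, 573 ± 286 FPKM in nonresponsive and 404 ± 168 FPKM in responsive tumors (SD, n = 3 each). The authors' pooled values of Fcer1g were 254, 472 and 392 FPKM in PBS, nonresponsive and responsive tumors.

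Fcgrt, the heavy chain of FcRn, followed another order of groups. Fcgrt was 34.0, 48.0 and 43.8 FPKM in PBS tumors, 64.5, 61.8 and 38.9 FPKM in nonresponsive tumors, and 74.4, 66.1 and 57.5 FPKM in responsive tumors. Responsive tumors were all above PBS tumors, and nonresponsive tumors overlapped both other groups. The group means were 41.9 ± 7.17, 55.1 ± 14.1 and 66.0 ± 8.42 FPKM (SD, n = 3 each).

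**Figure D1:**
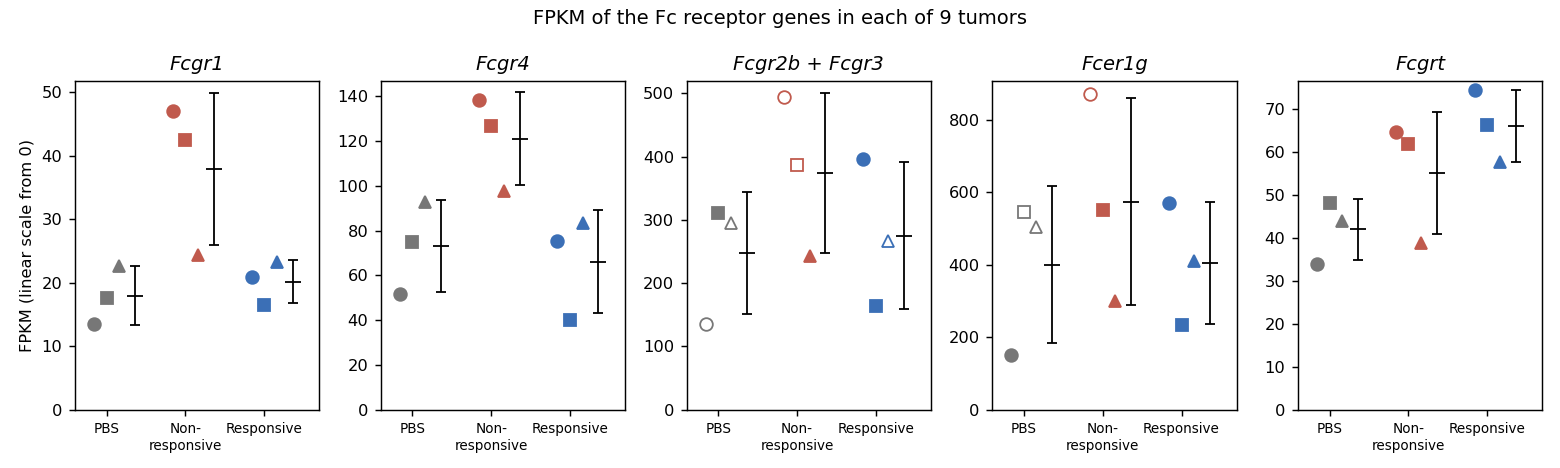
FPKM (linear axis from 0) of Fcgr1, Fcgr4, Fcgr2b + Fcgr3, Fcer1g and Fcgrt in each tumor (circle, square and triangle for tumors 1, 2 and 3; open symbols where Fcgr2b and Fcgr3 shared 1 row or the row of Fcer1g held another gene), with the group mean and SD in black (n = 3). Fcgr1 and Fcgr4 were above all other tumors in the 3 nonresponsive tumors, by little in tumor 3, and Fcgrt was above all PBS tumors in the 3 responsive tumors.

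Fcer1g had a mean of 368.7 FPKM over the 6 tumors where it stood alone. By mean FPKM over the 9 tumors the order of the others was Fcgr2b + Fcgr3 (299 FPKM), Fcgr4 (86.8), Fcgrt (54.3) and Fcgr1 (25.4). Fcgr2b + Fcgr3 was above Fcgr4 in 9 of 9 tumors and Fcgr4 above Fcgrt in 8 of 9, so that these neighbors rarely changed places although their spreads between tumors overlapped. Fcgr2b + Fcgr3 exceeded 97.5% of the 12895 loci with a mean of at least 1 FPKM, and Fcgr1 exceeded 71.6% of them. Of the summed FPKM of the 4 Fc gamma receptor genes, Fcgr2b + Fcgr3 took 66.5% to 80.5%, Fcgr4 15.3% to 26.8% and Fcgr1 4.25% to 7.64%. The share of Fcgr1 was 6.69% to 7.64% in nonresponsive, 4.38% to 6.72% in PBS and 4.25% to 7.46% in responsive tumors, and the groups overlapped. The makeup of the receptor transcripts thus differed less between tumors than their sum, which ran from 201 FPKM in PBS tumor 1 to 680.0 FPKM in nonresponsive tumor 1.

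**Figure D2:**
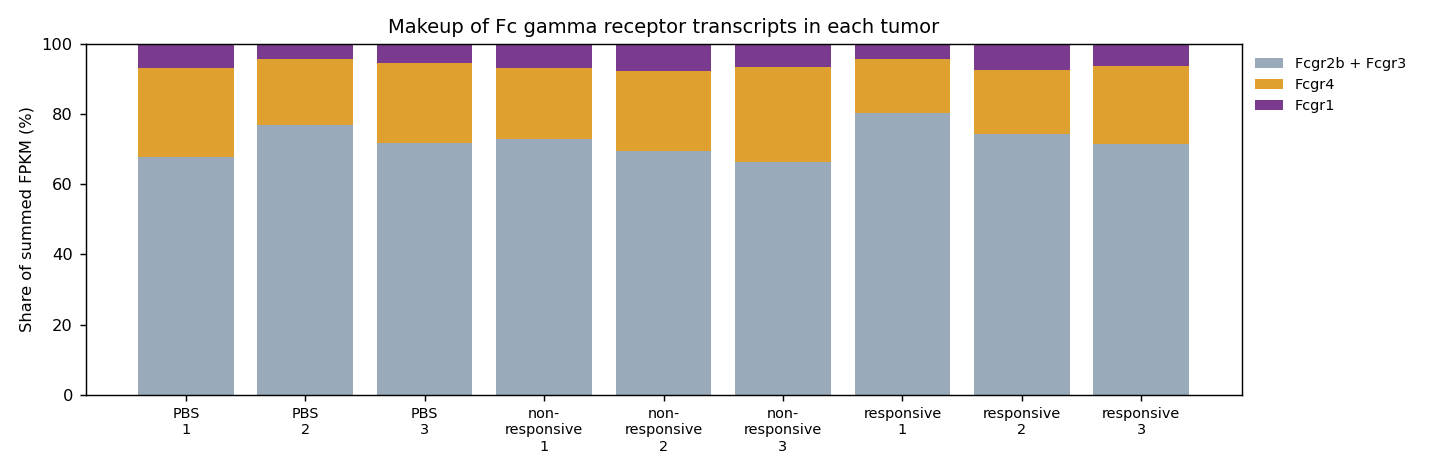
Share (%) of the summed FPKM of Fcgr1, Fcgr2b, Fcgr3 and Fcgr4 held by each gene or locus, 1 stacked bar per tumor. Fcgr2b + Fcgr3 held between 66.5% and 80.5% in all 9 tumors and Fcgr1 the smallest share in each.

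Responsive and nonresponsive tumors both received the antibody, and their comparison asks how the Fc receptor genes differ between small and large treated tumors. Fcgr1 and Fcgr4 were lower in responsive tumors, without overlap of the groups, and the groups overlapped for the other Fc gamma receptor genes and Fcer1g. Fcgr1 differed by −0.84 on the log2(FPKM + 1) scale (SE 0.304), or 1.79-fold lower, and Fcgr4 by −0.91 (SE 0.336), or 1.88-fold lower. With limma the unadjusted p was 0.0331 for Fcgr1 and 0.0354 for Fcgr4, and the Benjamini-Hochberg adjusted p over all 13832 gene symbols tested was 0.886 for both. Thus 2 of 6 members were lower at an unadjusted p under 0.05, against 1.44% of all symbols tested, and none passed after adjustment, as 0.116% of all symbols (16) did. Non-overlapping groups with responsive tumors lower were seen for the same 2 members and for 4.75% of all symbols. Fcgr2b + Fcgr3 differed by −0.47 (95% confidence interval −1.50 to 0.55) and Fcer1g by −0.47 (−1.75 to 0.82), so that a 2-fold lower level was within the interval of both. Fcgrt differed by 0.28 (−0.36 to 0.93), opposite in sign to those above. Rows of their own, in nonresponsive tumor 3 and responsive tumors 1 and 2, gave −0.05 for Fcgr2b and 0.17 for Fcgr3. Summed by name they differed by −0.90 and −0.72, where the rows of nonresponsive tumors 1 and 2 and responsive tumor 3 held both genes. The unadjusted p of these summed values and of Fcer1g ran from 0.262 to 0.406, and in the 5 tumors of these groups where its row held no other gene Fcer1g differed by −0.10 (−1.38 to 1.18).

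Both calls in responsive against nonresponsive tumors were close to the threshold. Without nonresponsive tumor 3 the unadjusted p of Fcgr1 was 0.00509 (adjusted p = 0.912, limma), and without any of the other 5 tumors it was 0.0517 to 0.10. That of Fcgr4 was over 0.05 without nonresponsive tumor 1 or 2 or responsive tumor 2, with differences of −0.81, −0.87 and −0.59. Scaling to the upper quartile gave −0.79 for Fcgr1 and −0.86 for Fcgr4 (unadjusted p 0.0576 and 0.0597), and scaling to the FPKM of named rows gave −1.05 and −1.12 (0.0144 and 0.0139). The latter scaling moved the median of all symbols tested from −0.07 to −0.24, and 582 symbols were then lower and 319 higher at an unadjusted p under 0.05, against 199 and 560 without it.

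Nonresponsive and PBS tumors differ by the antibody and by the choice of the largest treated tumors, and the size of the PBS tumors was not analysed here. Fcgr1, Fcgr4, Fcgrt and the joined locus of Fcgr2b + Fcgr3 had a higher mean in nonresponsive tumors, as did Fcer1g by its rows. So did 6144 of 13793 symbols, and Fcgr1 and Fcgr4 were higher without overlap. Fcgr1 was 2.02-fold higher (log2 difference 1.02, SE 0.325) and Fcgr4 1.68-fold higher (0.74, SE 0.283). The unadjusted p from limma was 0.0216 and 0.0404, and the adjusted p was 0.718 for both over 13793 symbols. In a fit of all 9 tumors the Fcgr4 difference no longer passed (unadjusted p = 0.0584, adjusted p = 0.694, limma). These 2 of 6 members compare with 1.51% of all symbols that were higher at an unadjusted p under 0.05 and 3.23% that were higher without overlap, and 0.0798% had an adjusted p under 0.05. The comparison shares its nonresponsive tumors with the one above and is no separate evidence on Fcgr1 and Fcgr4. Fcgr2b + Fcgr3 differed by 0.63 (−0.42 to 1.68), Fcer1g by 0.60 (−1.0 to 2.19) and Fcgrt by 0.36 (−0.30 to 1.03), all with overlapping groups. Fcer1g in rows of its own was 1.42 higher in nonresponsive tumors 2 and 3 than in PBS tumor 1 (unadjusted p = 0.0856, adjusted p = 0.707, limma), which rests on a single PBS tumor that stood apart from the rest. Without PBS tumor 1 the difference was 0.84 for Fcgr1, 0.52 for Fcgr4, 0.25 for Fcgr2b + Fcgr3 and 0.0008 for Fcer1g, and no unadjusted p stayed under 0.05.

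For Fcgr1 in nonresponsive against PBS tumors the unadjusted p stayed under 0.05 without nonresponsive tumor 3 (1.30, unadjusted p = 0.00531, adjusted p = 0.358, limma) or PBS tumor 3, and was above 0.05 without any of the other 4 tumors. The same held for Fcgr4, whose difference ran from 0.52 to 0.93. Without nonresponsive tumor 3, 1859 symbols passed an unadjusted p of 0.05 (708 higher and 1151 lower), against 444 with it (208 and 236), and the joined locus of Fcgr2b + Fcgr3 differed by 0.91 (unadjusted p = 0.0900, adjusted p = 0.324, limma).

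Responsive and PBS tumors set small treated tumors against untreated ones. Both groups overlapped at each Fc gamma receptor locus and at Fcer1g but not at Fcgrt. Fcgrt was 1.57-fold higher in responsive tumors (log2 difference 0.65, SE 0.200), without overlap in 3 against 3 tumors. The values are not equally firm. Cufflinks' interval of responsive tumor 2 ran from 31.9 to 100.3 FPKM and so spanned all PBS values, and the row of responsive tumor 3 was longer than in the other tumors. The unadjusted p of the Fcgrt difference from limma was 0.0192 and the adjusted p was 0.281 over 13841 symbols. This 1 of 6 members stands against 8.48% of all symbols higher at an unadjusted p under 0.05 and 11.6% higher without overlap, so that such a difference was common among genes in this comparison, and 0.231% of symbols but no member had an adjusted p under 0.05. Fcgr1 differed by 0.18 (95% confidence interval −0.43 to 0.78), Fcgr4 by −0.17 (−1.07 to 0.74), Fcgr2b + Fcgr3 by 0.15 (−0.97 to 1.28) and Fcer1g by 0.13 (−1.40 to 1.66). The intervals are wide, and a 1.5-fold difference either way was within all 4 of them, except for a lower level of Fcgr1. Without responsive tumor 1 the Fcgrt difference was 0.56 and without PBS tumor 1 it was 0.51 (unadjusted p 0.0555 and 0.0557).

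**Figure D3:**
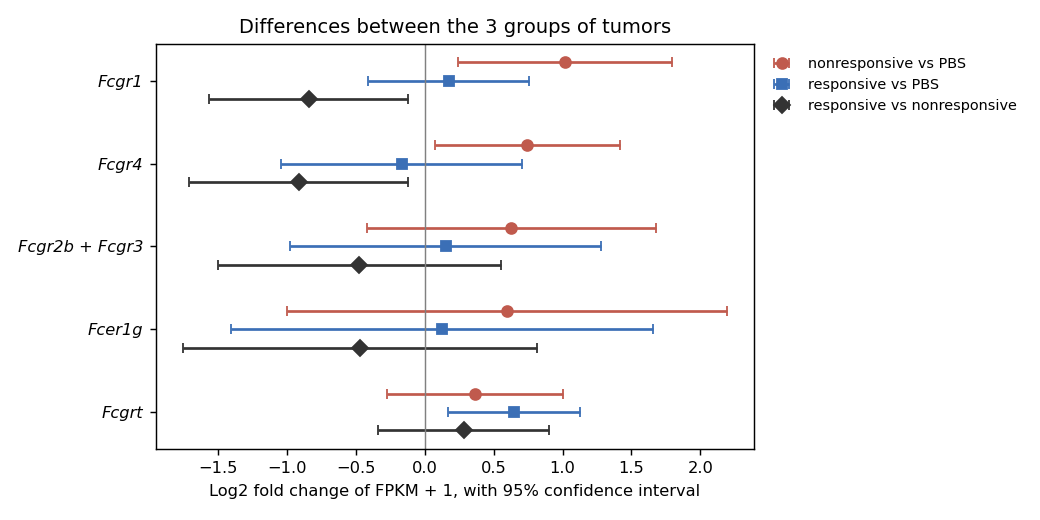
Log2 fold change of FPKM + 1 with its 95% confidence interval (limma; Fcgr2b and Fcgr3 as a joined locus, Fcer1g by its rows) for each gene or locus in the 3 comparisons of groups (3 tumors each). The intervals of Fcgr1 and Fcgr4 lay above 0 for nonresponsive against PBS tumors and below 0 for responsive against nonresponsive tumors, and that of Fcgrt lay above 0 for responsive against PBS tumors; no adjusted p was under 0.05.

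In bulk tumors fewer cells of a type and less RNA per cell cannot be told apart, so the members were set beside cell type markers. The macrophage list (10 genes in 9 loci, led by C1qb, C1qc and C1qa, which make complement C1q) summed to 733 to 1365 FPKM in PBS, 1365 to 2015 FPKM in nonresponsive and 1209 to 1957 FPKM in responsive tumors, with no marker at 0. Its mean log2(FPKM + 1) level was 5.73 ± 0.51, 6.54 ± 0.47 and 6.13 ± 0.53 (SD, n = 3 each). Between responsive and nonresponsive tumors 0 of 9 loci passed an unadjusted p of 0.05 (limma), but only 1 of 9 had a higher mean in responsive tumors (median log2 difference −0.45). Between nonresponsive and PBS tumors 9 of 9 loci had a higher mean (median 0.76). Of them 1 was higher at an unadjusted p under 0.05 (limma), as were 1.57% of 12663 loci. The monocyte list (2 usable loci, Plac8 and Chil3) was 409 to 482 FPKM in nonresponsive, 223 to 380.0 FPKM in PBS and 193 to 324 FPKM in responsive tumors. The sum was mostly Plac8, and by the mean log2(FPKM + 1) level of both genes nonresponsive tumor 3 (6.18) lay below PBS tumor 3 (6.22) and responsive tumor 3 (6.48), so that the groups overlapped. The neutrophil list (4 loci, led by S100a9 and Retnlg) overlapped between groups, at 281 to 3009, 105 to 1235 and 225 to 1877 FPKM in nonresponsive, PBS and responsive tumors. Between responsive and nonresponsive tumors 1 of 2 monocyte loci was lower at an unadjusted p under 0.05 (limma, median of both −0.88), as were 1.56% of 12716 loci. Of the 4 neutrophil loci 0 had a higher mean in responsive than in nonresponsive tumors (median −1.03), and none passed that threshold. The part of these cells in the differences of the members was not tested.

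Over the 9 tumors, dissected alike but pooled from 3 groups that differ in treatment or in selection by size, the members were set beside the marker means. Fcgr2b + Fcgr3 went with the macrophage mean (Pearson r = 0.94, n = 9 tumors, a description as are all correlations here) and the neutrophil mean (0.93). Fcgr1 and Fcgr4 went together (0.90). The r of Fcgr1 was 0.92 with the monocyte mean, 0.83 with the macrophage mean and 0.77 with the neutrophil mean. For Fcgr4 these were 0.84, 0.78 and 0.80. The monocyte mean rests on 2 loci, and with 9 tumors such gaps do not tell the markers apart. Fcgrt went less closely with Fcgr2b + Fcgr3 (0.56), Fcgr1 (0.42) and Fcgr4 (0.14). It went with the means of hepatocyte (0.90) and sinusoidal endothelial markers (0.89) and of Kupffer cell and dendritic cell markers (0.84 each). The means of T cell (0.73), macrophage (0.68) and B cell markers (0.62) came next.

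**Figure D4:**
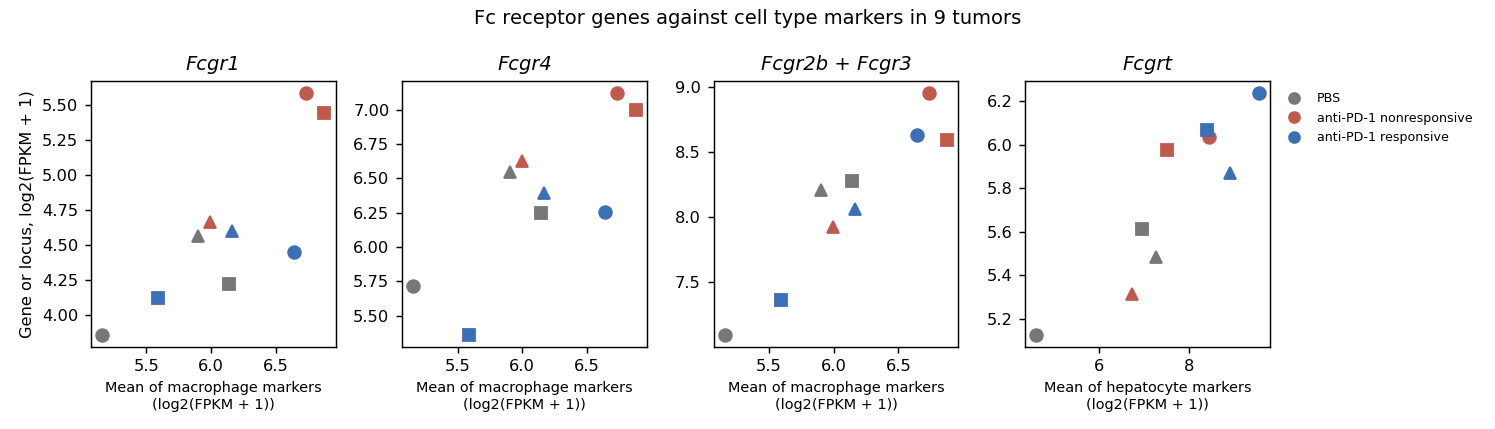
Log2(FPKM + 1) of Fcgr1, Fcgr4, Fcgr2b + Fcgr3 and Fcgrt against the mean log2(FPKM + 1) of the macrophage markers, or for Fcgrt of the hepatocyte markers, in 9 tumors (color, group; circle, square and triangle, tumors 1, 2 and 3). Fcgr2b + Fcgr3 followed the macrophage mean (r = 0.94), while responsive tumor 1 had a high macrophage mean but less Fcgr1 and Fcgr4 than nonresponsive tumor 3.

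Relative to the macrophage mean, Fcgr1 was at −1.15, −1.44 and −1.33 (log2) in nonresponsive tumors and −2.19, −1.47 and −1.57 in responsive tumors. The groups did not overlap, by a margin of hundredths between nonresponsive tumor 2 and responsive tumor 2. On this scale 0.433% of 12716 loci were lower without overlap. The subtracted mean was higher in nonresponsive tumors (6.54 against 6.13), which moves all loci toward higher values in responsive tumors. Without the subtraction 4.78% of the loci were lower and 5.69% higher without overlap. Fcgr4 was at 0.39, 0.12 and 0.63 in nonresponsive tumors, against −0.39, −0.23 and 0.23 in the responsive group, with responsive tumor 3 above nonresponsive tumor 2. Fcgr2b + Fcgr3 stood at 1.72 to 2.31 in all 9 tumors, and its groups overlapped. Against PBS tumors, Fcgr1 and Fcgr4 of nonresponsive tumors overlapped on this scale, where PBS tumors were at −1.30, −1.92 and −1.34 for Fcgr1 and 0.56, 0.11 and 0.65 for Fcgr4. Fcgrt stood at −0.41 to 0.48 in responsive and −0.90 to −0.68 in nonresponsive tumors, without overlap, as did 12.4% of 12716 loci with the responsive group higher. PBS tumors were at −0.028, −0.53 and −0.42 for Fcgrt and overlapped the responsive tumors on this scale.

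Hepatocyte and B cell markers moved with the groups beside Fcgrt. The hepatocyte list (6 loci, led by Alb and Apoa1) summed to 302 to 2705 FPKM in PBS, 1694 to 6002 FPKM in nonresponsive and 5552 to 11610 FPKM in responsive tumors, with no marker at 0. All 6 loci were higher in responsive than in PBS tumors at an unadjusted p under 0.05 (limma), as were 9.12% of 12715 loci. Against nonresponsive tumors 4 of 6 were higher at that threshold, as were 4.36% of 12716 loci. The B cell list (5 loci, led by Cd79b and Cd79a) had all 5 loci past that threshold between the treated groups, with responsive tumors higher, at 61.1 to 206 against 24.7 to 35.0 FPKM, while Fcgr2b, which B cells also express, was not higher there in its joined locus. Cd79a was listed at 0 in nonresponsive tumor 1. Sinusoidal endothelial markers (5 loci) summed to 13.3 to 37.5, 32.0 to 61.2 and 41.1 to 94.5 FPKM in PBS, nonresponsive and responsive tumors, and Kupffer cell markers (6 loci, Folr2 listed at 0 in a tumor of every group) to 4.52 to 118, 85.3 to 250 and 119 to 333 FPKM. NK cell markers (4 loci) summed to 8.36 to 35.7 FPKM over the 9 tumors, T cell markers (5 loci) to 24.7 to 103 FPKM, and dendritic cell markers (3 loci) to 4.73 to 11.9 FPKM. Mast cell and basophil markers, which would mark the cells that use Fcer1g in the IgE receptor, summed to 1.54 to 9.40 FPKM, and Fcer1a, the IgE-binding chain, was at most 0.397 FPKM. The part of hepatocytes in the difference of Fcgrt was not tested.

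The genes most alike to Fcgr1, Fcgr4, Fcgr2b + Fcgr3 and Fcgrt over the 9 tumors were sought among 7079 loci with a mean of at least 10 FPKM. By Pearson correlation of log2(FPKM + 1) they differed between the members, except that Tifab came first for both Fcgr1 and Fcgr4. For Fcgr1 they were Tifab (0.95), Arhgap17 (0.95) and Cap1 (0.94), and for Fcgr4 Tifab (0.97), the locus of Lgalsl (0.95) and Il13ra1 (0.95). For Fcgr2b + Fcgr3 they were the locus of Igsf6 (0.99), Pla2g7 (0.99) and the locus of the paired receptors Pirb and Pira2 (0.99). For Fcgrt they were Hspa5 (0.97), Aplp2 (0.96) and Herpud1 (0.96), of which Hspa5 and Herpud1 belong to the response to unfolded proteins in the endoplasmic reticulum.

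The rest of the Fc receptor pathway was taken from a list of 66 genes, of which 65 are in the files and 60 or 61 passed the filter in each comparison. Between responsive and nonresponsive tumors 4 genes were higher and 1 lower at an unadjusted p under 0.05 (4.05% and 1.44% of all symbols were). A lower mean in responsive tumors was seen for 43 of 61 genes (median log2 difference −0.22), against 7949 of all 13832 symbols tested (median −0.07). Between nonresponsive and PBS tumors 3 were higher and 0 lower, and 52 of 60 had a higher mean (median 0.65), against 6144 of all 13793 symbols (median −0.06). Between responsive and PBS tumors 5 were higher and 0 lower (8.48% and 8.76% of all symbols were). A higher mean was seen for 46 of 61 (median 0.42), against 5833 of all 13841 symbols (median −0.11). Scaled to the FPKM of named rows, 2 were higher and 4 lower between the treated groups, and 3 higher and 3 lower between responsive and PBS tumors. With that scaling 49 of 61 genes had a lower mean in responsive than in nonresponsive tumors, against 10420 of 14331 symbols. No gene of the list had an adjusted p under 0.05 in any comparison, the smallest being 0.281 for responsive against PBS tumors (limma).

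The signaling genes behind the activating receptors gave no call between responsive and nonresponsive tumors. Of the kinases, 10 of 10 had a lower mean in responsive tumors (median −0.26), where most symbols did (7949 of 13832), and none passed an unadjusted p of 0.05. Syk, the kinase that binds the ITAM, was 36.6 ± 17.1 FPKM in responsive, 40.5 ± 25.5 FPKM in nonresponsive and 22.6 ± 12.5 FPKM in PBS tumors (SD, n = 3 each). Tyrobp, an ITAM adaptor of other myeloid receptors, was 482 ± 237, 608 ± 284 and 326 ± 136 FPKM in the same order, and all 3 groups overlapped for both genes. Of the adaptors and ITAM partners 10 of 15 and of the effectors 11 of 14 had a lower mean in responsive than in nonresponsive tumors (medians −0.41 and −0.15), with none past an unadjusted p of 0.05. Between nonresponsive and PBS tumors the kinases (9 of 10), adaptors (14 of 15) and effectors (12 of 14) had mostly higher means (medians 0.66 to 0.67), as the members did. Only Pira2, an activating receptor that signals through Fcer1g, was higher there at an unadjusted p under 0.05 among them (log2 difference 1.65, unadjusted p = 0.0374, adjusted p = 0.718, limma), and it shared rows with Pirb and others in some tumors. Between responsive and PBS tumors their medians were 0.23 for kinases, 0.23 for adaptors and 0.57 for effectors, and only Lat, an adaptor best known from T cells, was higher (1.05, unadjusted p = 0.0420, adjusted p = 0.287, limma).

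On the inhibitory side, which Fcgr2b feeds into, Inpp5d and Ptpn6 had similar means in both treated groups. Inpp5d, the gene of SHIP1, was 20.6 ± 4.81 FPKM in responsive, 22.9 ± 9.02 FPKM in nonresponsive and 13.5 ± 6.30 FPKM in PBS tumors (SD, n = 3 each). Ptpn6, the gene of the phosphatase SHP-1, was 82.7 ± 9.78, 82.4 ± 14.3 and 62.1 ± 13.9 FPKM in the same order, and the groups overlapped for both genes. Of 11 inhibitors 8 had a lower mean in responsive than in nonresponsive tumors (median −0.23), and Cbl, a ubiquitin ligase, was lower (log2 difference −0.57, unadjusted p = 0.0471, adjusted p = 0.886, limma). Pilra, an inhibitory receptor of myeloid cells that shared rows with its paralogs, differed by −1.51 with overlapping groups (unadjusted p = 0.128, adjusted p = 0.947, limma). Dok2, an adaptor that restrains kinase signaling, was higher in nonresponsive than in PBS tumors (0.56, unadjusted p = 0.0431, adjusted p = 0.718, limma), where 8 of 11 inhibitors had a higher mean (median 0.56). In responsive against PBS tumors 6 of 11 had a higher mean (median 0.20) with none past an unadjusted p of 0.05.

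Several other Fc receptor genes, mostly of B cells, had a higher mean in responsive than in nonresponsive tumors, where Fcgr1 and Fcgr4 had a lower one. No adjusted p was under 0.05. Of 9 tested, 6 had a higher mean in responsive tumors (median 0.95). At an unadjusted p under 0.05 (limma) 3 were higher, as were 4.05% of all symbols. Fcmr, the IgM receptor of B cells, was 9.94, 6.41 and 15.1 FPKM in responsive tumors and 3.58, 2.13 and 0.994 FPKM in nonresponsive tumors (log2 difference 1.84, unadjusted p = 0.00505, adjusted p = 0.886, limma). Fcer2a, the low-affinity IgE receptor of B cells, was 9.09, 4.23 and 13.4 FPKM against 2.17, 1.30 and 1.35 FPKM (1.83, unadjusted p = 0.00442, adjusted p = 0.886, limma). Neither overlapped between groups, where 5.78% of all symbols were higher without overlap. The third was Fcrl1, also of B cells (1.07, adjusted p = 0.886, limma). Fcer2a and Fcmr were also higher in responsive than in PBS tumors (2.1 and 1.96, adjusted p 0.281 and 0.282, limma), with Fcrl5 (0.80, adjusted p = 0.288, limma). These 3 compare with 8.48% of all symbols higher there at an unadjusted p under 0.05, and 8 of 9 tested had a higher mean (median 1.20). Against PBS tumors, Fcrls, a scavenger receptor-like member of the family found in microglia and macrophages, was higher in nonresponsive tumors, at 4.33, 14.0 and 4.67 FPKM against 1.497, 0.812 and 1.61 FPKM (1.75, unadjusted p = 0.00904, adjusted p = 0.718, limma). There 7 of 8 tested had a higher mean (median 0.27), and 1.51% of all symbols were higher at an unadjusted p under 0.05.

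The partners of FcRn differed from each other. Alb, its ligand albumin, was 5041, 2576 and 4396 FPKM in responsive, 2678, 1490 and 885 FPKM in nonresponsive and 173, 835 and 1259 FPKM in PBS tumors. Responsive and PBS tumors did not overlap (log2 difference 2.76, unadjusted p = 0.0156, adjusted p = 0.281, limma), which was the order of groups seen for Fcgrt, and responsive and nonresponsive tumors did (1.34, unadjusted p = 0.0492, adjusted p = 0.886, limma). B2m, the light chain of FcRn and of MHC class I, was 4210 ± 942 FPKM in responsive, 5006 ± 987 FPKM in nonresponsive and 4444 ± 1222 FPKM in PBS tumors (SD, n = 3 each), and all groups overlapped. The 4 IgG heavy chain genes, whose products the receptors bind, shared rows with each other and with other heavy chain genes in most tumors, so their values cannot be assigned to single genes. The row that held Ighg2c was 1513, 2689 and 3270 FPKM in responsive tumors and 8421, 4574 and 5183 FPKM in nonresponsive tumors. The log2 difference was −1.30 (unadjusted p = 0.0372, adjusted p = 0.886, limma), but different heavy chain genes shared the row from tumor to tumor. Its value equalled those of Ighg1 and Ighg2b in every nonresponsive tumor and in responsive tumor 2. In responsive tumors 1 and 3 it was apart from that of Ighg1 (9569 and 15190 FPKM). The merging of rows thus ran partly along the groups, and the difference cannot be read as one of IgG transcripts. No other IgG gene passed an unadjusted p of 0.05 in any comparison.

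**Figure D5:**
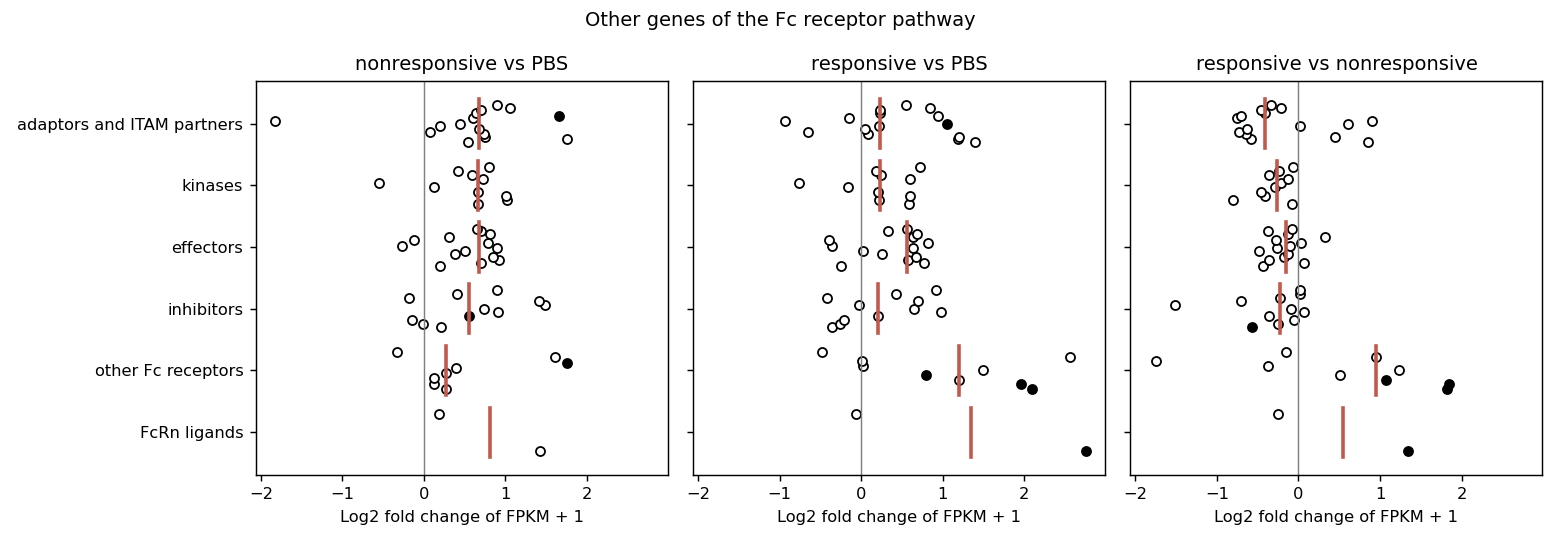
Log2 fold change of FPKM + 1 for the other genes of the Fc receptor pathway that passed the filter, by role, in the 3 comparisons (filled points, unadjusted p under 0.05 by limma; red lines, medians). Medians of kinases, adaptors and effectors were 0.66 to 0.67 for nonresponsive against PBS tumors and below 0 for responsive against nonresponsive tumors, while other Fc receptors had a median of 0.95 in the latter.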

How the data were processed

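Bulk RNA-seq of 9 tumors was analysed (3 PBS, 3 anti-PD-1-nonresponsive, 3 anti-PD-1-responsive). The authors deposited 1 table of Cufflinks FPKM values a tumor (per kilobase of transcript, scaled to all mapped fragments), on transcripts assembled in that tumor. The submitters' processing notes name TopHat2 2.1.1, Bowtie2 2.2.4 and mm8; the Cufflinks version is not given in the sources used here. A group table holds the authors' pooled FPKM, of which only these were used; its fold changes, p-values and q-values by Cuffdiff were not.

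FPKM was summed over the rows naming a symbol, and symbols with identical values in all tumors were counted once (50390 features). A set of joined loci (48254) merged all genes that shared a row in any tumor. 13 symbols with a failed estimate were left out. Two-sided tests came from limma 3.58.1 (R 4.3.3; lmFit, eBayes with trend), applied to log2(FPKM + 1) of the 6 tumors in a comparison, for features with at least 1 FPKM in 3 of them, with Benjamini-Hochberg adjustment over all. The steps were tested on simulated data. Tables and plots used Python 3.11.15, pandas 2.3.3, numpy 2.4.6 and matplotlib 3.10.9. No depth is given, so precision rests on the 3 tumors per group.

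The members and lists were chosen with earlier results of these data known. Named were all 6 members; from the pathway list Syk, Tyrobp, Inpp5d, Ptpn6, B2m and the 3 largest differences with an unadjusted p under 0.05 per comparison; the 3 loci most alike to each member except Fcer1g; and the 2 highest genes of cell type lists. Fcrl1, Fcrl5, Lat, Cbl, Pilra, Ighg2c, Folr2, Fcer1a, Afp and the remaining genes named with values were chosen after their values were seen. Alternatives were a pseudocount of 0.1, no filter, a filter at 5 FPKM, upper-quartile scaling, scaling to named rows, all 9 tumors in 1 fit, a replicate block, joined loci, rows naming 1 gene, and leaving out each tumor. Leave-one-out, scaling and block fits of the joined locus of Fcgr2b and Fcgr3 were added after seeing the data. A marker gene of the B cell list and the joined locus of Fcer1g are not reported here. Promoters came from RefSeq (GRCm38.p6, 6 of 6 members).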

Additional observations from a re-analysis of the deposited data

How the results depend on the processing

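Of 265 alternative values of the members, 223 kept direction and side of the unadjusted threshold, 26 lost and 3 gained an unadjusted p under 0.05, and 13 changed sign; no member had an adjusted p under 0.05 in any setting. Between responsive and nonresponsive tumors the count of members with an unadjusted p under 0.05 went from 2 to 0 with upper-quartile scaling and with the replicate block, and pathway genes from 5 to 3 with either. Between nonresponsive and PBS tumors members went from 2 to 1 in the fit of all 9 tumors and to 0 with the block, pathway genes from 3 to 5 with no filter, and all symbols from 444 to 810 with no filter, 270 with the filter at 5 FPKM and 237 with the block. Between responsive and PBS tumors members went from 1 to 0 with the block, pathway genes from 5 to 8 with no filter and to 3 with the pseudocount of 0.1, the filter at 5 FPKM or the block, and all symbols from 2387 to 948 with the block. Leaving out 1 tumor gave, for responsive against nonresponsive, nonresponsive against PBS and responsive against PBS, 0 to 2, 0 to 5 (without nonresponsive tumor 3, with Fcgr2b and Fcgr3 counted by name) and 0 to 1 members, 2 to 7, 1 to 12 and 2 to 11 pathway genes, and 310 to 1425, 216 to 1859 and 1005 to 3875 symbols. Scaled to named rows, higher and lower symbols went from 208 and 236 to 260 and 185 between nonresponsive and PBS tumors and from 1174 and 1213 to 927 and 2204 between responsive and PBS tumors, where upper-quartile scaling gave 1326 and 900. The cause was not tested, beside the fewer degrees of freedom of the block and of leaving a tumor out. Signs changed for Fcgr3 between responsive and nonresponsive tumors in rows naming 1 gene (0.17), and between responsive and PBS tumors for Fcer1g scaled to named rows (−0.025) and for Fcgr2b and Fcgr3 as joined loci (0.15). Leaving out 1 tumor also turned signs between responsive and PBS tumors, where differences ran from −0.0024 to 0.35 for Fcgr1, −0.62 to 0.33 for Fcgr2b, −0.44 to 0.31 for Fcgr3, −0.40 to 0.15 for Fcgr4, −0.47 to 0.48 for Fcer1g and −0.23 to 0.48 for Fcgr2b + Fcgr3. Whether replicate numbers pair the tumors could not be settled from 3 correlations per comparison. Deviations of same-numbered tumors correlated by 0.475, 0.0448 and −0.0503 between responsive and nonresponsive tumors. The correlations were −0.395, −0.0541 and −0.173 between nonresponsive and PBS, and −0.292, −0.324 and 0.137 between responsive and PBS tumors. With that block the unadjusted p was 0.0600 for Fcgr1 and 0.0559 for Fcgr4 between responsive and nonresponsive tumors (adjusted p 0.759 and 0.752, limma). With 3 tumors a group and unknown depth, observed differences smaller than the half-widths of their intervals did not reach an unadjusted p under 0.05 (limma). Real differences of that size could be missed.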
